A study of Homo sapiens with 8 samples.

Results

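The genes described here are 36 genes of the cell division cycle, 16 that act in S phase (MCM2 to MCM7, TYMS, RRM1, RRM2, E2F1, CDC6, CDC45, CCNE1, CCNE2, GINS2 and UHRF1) and 20 that act in mitosis (MKI67, TOP2A, CCNA2, CCNB1, CCNB2, CDK1, BUB1, BUB1B, AURKA, AURKB, PLK1, CDC20, CENPA, CENPE, CENPF, KIF11, KIF20A, BIRC5, FOXM1 and TPX2). They were chosen by symbol for their known roles, with earlier results of these data known. All 36 were found among the 26485 gene symbols of the RNA-seq tables. The study treated BEAS-2B cells with LY96 siRNA or control siRNA and stimulated them with house dust mite (HDM) extract or with PBS. LY96 encodes MD-2, the partner of the lipopolysaccharide receptor TLR4, and HDM extract is an allergen mixture that carries lipopolysaccharide and proteases. Total RNA was taken 24 h after stimulation. There were 3 libraries of LY96 siRNA cells with HDM, 3 of control siRNA cells with HDM, 1 of LY96 siRNA cells with PBS and 1 of control siRNA cells with PBS. All 8 came from cells kept in BEGM medium and switched to BEBM medium before stimulation. BEAS-2B is a line of human bronchial epithelium immortalised with an adenovirus-SV40 hybrid virus, and the viral large T antigen is known to bind the retinoblastoma protein and p53, both of which restrain division. The cell cycle of this line is therefore not that of normal airway epithelium. Nothing in the labels ties the 3 libraries of a group to separate cultures. The spread that the p-values rest on is that between these libraries and may be technical.

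Cells that enter S phase switch on the genes for copying DNA, largely through E2F transcription factors once cyclin-dependent kinases have inactivated the retinoblastoma protein. In G2, FOXM1 and the B-MYB complex switch on the genes that build the spindle, check chromosome attachment and divide the cell. Because each set is made mostly in its own phase, the RNA of both sets together is widely used as a readout of how many cells are dividing, and the balance of the sets as a readout of where in the cycle they are. In bulk RNA, fewer cells in a phase and less RNA per cell cannot be told apart.

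Values were taken as FPKM, a unit inferred from the numbers and not named in headers or labels. FPKM counts fragments relative to transcript length and library size. If the unit holds, levels of different genes can be set side by side per length. FPKM totals were 329777 to 340328 per library and the read depth is unknown. LY96, the targeted gene, was listed at 0 FPKM in all 8 libraries, so its depletion could not be checked and each LY96 siRNA group is named by its label. All 9 epithelial marker genes were above 0, with a summed level of 2352 to 2522 FPKM in the LY96 siRNA HDM libraries and 2511 to 2620 FPKM in the control siRNA HDM libraries. The 5 leukocyte markers summed to at most 0.0773 FPKM and the 4 endothelial markers to at most 0.379 FPKM in any library. PTPRC, CD3E, PECAM1, DCN and LUM were at 0. The 8 fibroblast list genes summed to 349.9 to 361 FPKM in the LY96 siRNA HDM libraries and 329 to 339 FPKM in the control siRNA HDM libraries, nearly all of it VIM, which cultured epithelial lines also make. The share of ribosomal RNA in the FPKM total was 1.03%, 1.03% and 1.31% with LY96 siRNA and HDM, and lower, at 0.824%, 0.475% and 0.565%, in the control siRNA HDM libraries. It moves with the siRNA groups, and its part in the differences between siRNAs below was not tested.

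The promoters of 29 of the 36 genes could be matched in RefSeq (GRCh38.p14), 13 S-phase and 16 mitotic. Each is the 250 bases before and 50 bases after the gene start given in RefSeq. That start can differ from the one in the GENCODE coordinates printed for genes below. The PLK1 window, for one, lies inside the GENCODE coordinates of PLK1. Known regulatory letters were searched on both strands: an E2F site (TTTCGCGC or TTTGGCGC), the cell cycle genes homology region or CHR (TTTGAA or TTCGAA), and the CCAAT box (CCAAT). The E2F letters were in 6 of 13 S-phase promoters (46.2%), 1 of 16 mitotic promoters (6.25%) and 1.18% of all 27305 promoters. The CHR letters were in 2 of 13 S-phase promoters (15.4%), 11 of 16 mitotic promoters (68.8%) and 16.6% of all promoters. CCAAT was in 10 of 13 (76.9%), 14 of 16 (87.5%) and 35.7% of all. The sets were chosen for function, and the letters for their known role in the regulation of such genes. The difference between the sets is therefore a description and not independent support for them. A match is a description of these bases and not a shown binding site. The 6 promoters printed here belong to the 3 S-phase and 3 mitotic genes with the smallest p between siRNAs among those matched, read 5′ to 3′ on the gene's strand, with E2F, CHR and CCAAT letters on either strand in capitals. AURKA, which had the smallest p of all 36 genes, is named only.
TYMS promoter (chr18:657403-657702, plus strand), no match: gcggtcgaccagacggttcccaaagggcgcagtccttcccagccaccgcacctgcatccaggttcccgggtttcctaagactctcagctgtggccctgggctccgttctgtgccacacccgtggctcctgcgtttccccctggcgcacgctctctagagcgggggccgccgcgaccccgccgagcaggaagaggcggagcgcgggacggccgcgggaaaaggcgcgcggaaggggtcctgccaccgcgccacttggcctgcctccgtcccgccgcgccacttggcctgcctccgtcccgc
MCM3 promoter (chr6:52284693-52284992, minus strand), E2F and CCAAT: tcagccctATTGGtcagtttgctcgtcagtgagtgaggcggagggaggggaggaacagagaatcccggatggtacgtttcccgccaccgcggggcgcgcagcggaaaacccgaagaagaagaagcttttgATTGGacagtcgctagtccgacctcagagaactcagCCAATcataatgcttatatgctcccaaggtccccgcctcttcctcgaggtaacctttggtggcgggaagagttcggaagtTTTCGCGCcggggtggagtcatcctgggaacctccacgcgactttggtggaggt
E2F1 promoter (chr20:33686336-33686635, minus strand), E2F and CCAAT: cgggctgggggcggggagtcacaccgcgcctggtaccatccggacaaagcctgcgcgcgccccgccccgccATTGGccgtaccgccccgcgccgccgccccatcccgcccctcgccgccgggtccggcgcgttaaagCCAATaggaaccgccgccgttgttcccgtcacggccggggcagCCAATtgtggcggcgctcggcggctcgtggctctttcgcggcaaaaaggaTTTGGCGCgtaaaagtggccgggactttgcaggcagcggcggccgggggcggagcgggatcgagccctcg
PLK1 promoter (chr16:23678639-23678938, plus strand), CHR and CCAAT: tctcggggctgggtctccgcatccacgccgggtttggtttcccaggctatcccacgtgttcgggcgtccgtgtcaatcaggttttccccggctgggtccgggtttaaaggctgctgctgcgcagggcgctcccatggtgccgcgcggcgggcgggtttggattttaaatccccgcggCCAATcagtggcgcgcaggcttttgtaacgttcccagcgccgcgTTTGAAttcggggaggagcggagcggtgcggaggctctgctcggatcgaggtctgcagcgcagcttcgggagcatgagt
KIF11 promoter (chr10:92592880-92593179, plus strand), CHR and CCAAT: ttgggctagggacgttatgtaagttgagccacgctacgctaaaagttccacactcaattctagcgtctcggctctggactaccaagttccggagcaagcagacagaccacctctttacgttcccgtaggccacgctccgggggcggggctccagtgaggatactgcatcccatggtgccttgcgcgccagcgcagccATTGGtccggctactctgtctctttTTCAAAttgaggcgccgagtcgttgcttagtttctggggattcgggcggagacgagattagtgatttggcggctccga
CCNB1 promoter (chr5:69166900-69167199, plus strand), CCAAT: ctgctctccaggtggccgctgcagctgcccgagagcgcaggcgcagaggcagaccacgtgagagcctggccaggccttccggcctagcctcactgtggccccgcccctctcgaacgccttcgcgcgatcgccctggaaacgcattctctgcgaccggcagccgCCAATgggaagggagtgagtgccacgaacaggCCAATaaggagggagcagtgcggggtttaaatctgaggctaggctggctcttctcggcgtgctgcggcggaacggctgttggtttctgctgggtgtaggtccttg
In MCM3 the E2F letters began 4 bases before the gene start and in E2F1 20 bases before it. In PLK1 the CHR letters began 29 bases before the start and the CCAAT box 73 bases before it. In KIF11 the distances were 28 bases for the CHR letters, on the minus strand of the gene, and 53 bases for CCAAT. In CCNB1 the CCAAT boxes began 87 and 55 bases before the start, and the CHR letters searched were not in this window.

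All 36 genes were expressed in every library, 35 of them at a mean of at least 10 FPKM. The exception was CCNE1, the first cyclin E gene, with 2.58, 3.28 and 3.63 FPKM in the LY96 siRNA HDM libraries, 3.96, 4.11 and 3.71 FPKM in the control siRNA HDM libraries, 2.57 FPKM with LY96 siRNA and PBS, and 4.33 FPKM with control siRNA and PBS. MCM7 was the highest S-phase gene and TOP2A the highest mitotic gene per length. Spread within a group was small: the plot of levels by library shows the libraries of a gene within a narrow band beside the differences between genes.

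**Figure D1:**
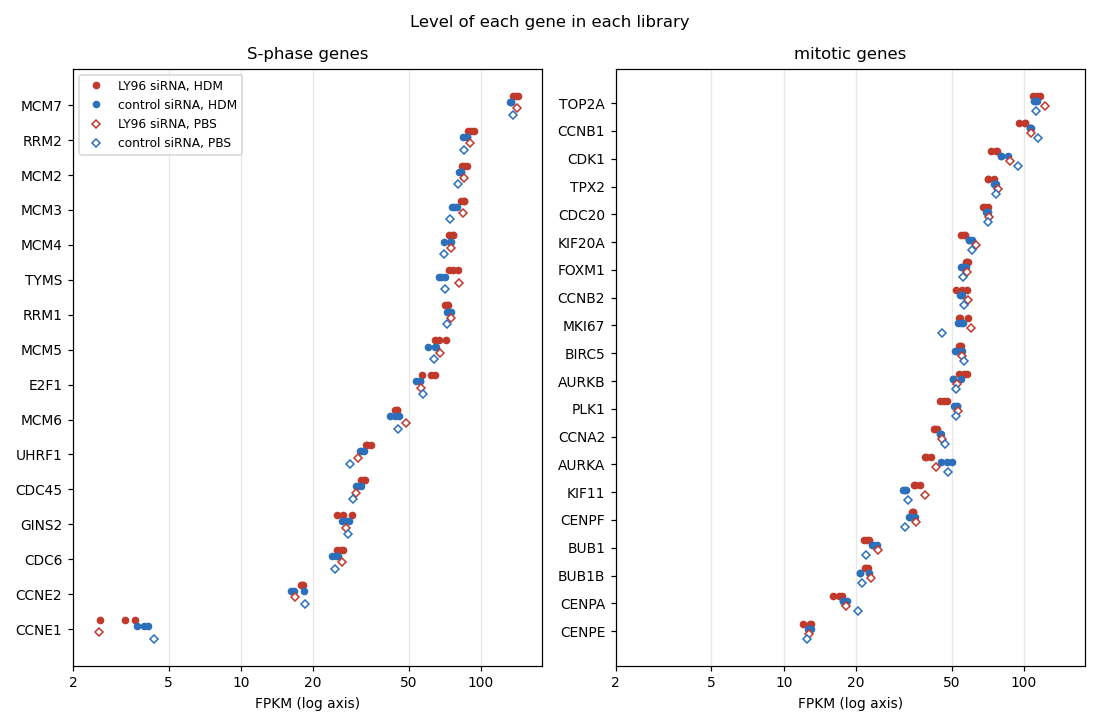
Level of each of the 36 genes in each of 8 libraries, in FPKM on a log axis, S-phase genes left and mitotic genes right, ordered by mean level. Filled circles are HDM libraries (3 per siRNA) and open diamonds the PBS libraries (1 per siRNA). Levels ran from CCNE1, at 2.57 to 4.33 FPKM, to MCM7, at 132 to 142 FPKM, and siRNA and treatment moved single genes little beside that range.

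With HDM, 5 of the 36 genes passed the test between LY96 siRNA and control siRNA, all by small differences. Of 16 S-phase genes 2 rose (MCM3 and TYMS) and 0 fell. Of 20 mitotic genes 1 rose (KIF11) and 2 fell (AURKA and PLK1). Over all 12598 genes tested in this comparison, 6.68% rose and 8.92% fell, so the members' counts are near what the whole table gave. Calls are limma tests on log2(FPKM + 1) with Benjamini-Hochberg adjustment over all genes tested and a threshold of 0.05, and log2 differences are LY96 siRNA minus control siRNA on that scale. The number of genes called depended on scaling: 842 rose and 1124 fell with FPKM as deposited, and 1068 rose and 877 fell with median-ratio scaling. The median log2 difference was 0.07 over the S-phase genes, with 13 of 16 above 0, and -0.02 over the mitotic genes, with 9 of 20 above 0, beside -0.02 over all genes tested. The S-phase median stayed above 0 under both other scalings tried, while the mitotic median became 0.0022 under median-ratio scaling and 6.0e-04 under quantile normalization.

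**Figure D2:**
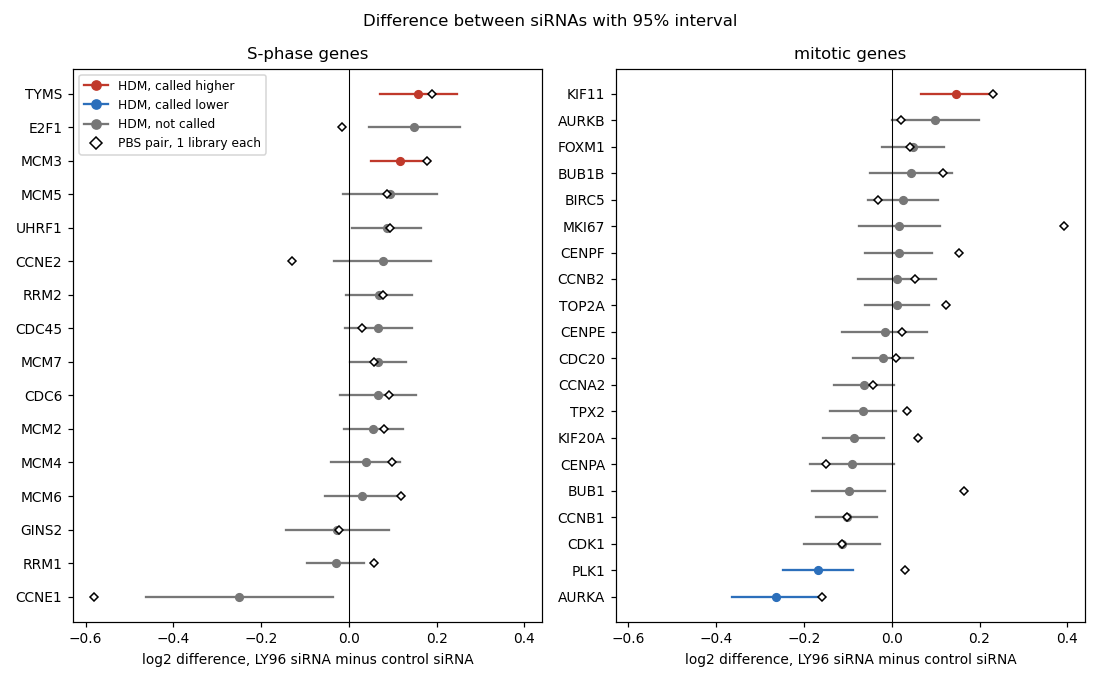
Log2(FPKM + 1) difference of LY96 siRNA minus control siRNA for the 16 S-phase genes (left) and 20 mitotic genes (right). Circles are the HDM libraries (3 against 3) with unadjusted 95% limma intervals, coloured where called, and open diamonds are the PBS pair (1 library each, no test). MCM3, TYMS and KIF11 lie above 0 and AURKA and PLK1 below it among the called genes, and CCNE1 has the widest interval.

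The 6 MCM genes encode the helicase that opens the DNA double helix ahead of the replication fork. MCM3 (chr6:52264009-52284881, GRCh38) had 82.6, 84.8 and 84.7 FPKM in the LY96 siRNA HDM libraries, 76.0, 77.0 and 79.2 FPKM in the control siRNA HDM libraries, 84.0 FPKM with LY96 siRNA and PBS, and 74.1 FPKM with control siRNA and PBS. Each LY96 siRNA library, HDM or PBS, was above each control siRNA library. With HDM the mean was 84.0 ± 1.24 FPKM in LY96 siRNA cells and 77.4 ± 1.62 FPKM in control siRNA cells (SD, n = 3 each), a log2 difference of 0.12 ± 0.03 (SE, limma adjusted p = 0.0305). The call was lost when control siRNA HDM library 1 or 2 or LY96 siRNA HDM library 2 or 3 was left out (limma adjusted p 0.0777 to 0.0969). MCM7 had 139.9, 142 and 136 FPKM in the LY96 siRNA HDM libraries, 133, 133 and 132 FPKM in the control siRNA HDM libraries, 142 FPKM with LY96 siRNA and PBS, and 136 FPKM with control siRNA and PBS. The HDM groups did not overlap, but MCM7 did not pass the test (0.07 ± 0.03 SE, limma adjusted p = 0.144). MCM2, MCM4, MCM5 and MCM6 differed by 0.06, 0.04, 0.09 and 0.03 on the log2 scale and were not called, so all 6 subunits were above 0 with 1 called.

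CDC6 helps to load the MCM ring onto origins, and CDC45 and the GINS subunit GINS2 turn the loaded ring into the active helicase. CDC45 had 31.8, 32.6 and 32.8 FPKM in the LY96 siRNA HDM libraries, 30.1, 30.9 and 31.6 FPKM in the control siRNA HDM libraries, 30.0 FPKM with LY96 siRNA and PBS, and 29.4 FPKM with control siRNA and PBS. The HDM groups came close without overlapping, and the difference of 0.07 on the log2 scale was not called (95% interval -0.01 to 0.14). CDC6 (0.07) and GINS2 (-0.03) were not called either.

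TYMS makes thymidylate, and RRM1 and RRM2 form ribonucleotide reductase, which makes the deoxynucleotides. TYMS (chr18:657604-673578) had 76.5, 80.3 and 73.8 FPKM in the LY96 siRNA HDM libraries, 68.3, 67.1 and 71.0 FPKM in the control siRNA HDM libraries, 80.6 FPKM with LY96 siRNA and PBS, and 70.6 FPKM with control siRNA and PBS. All 4 LY96 siRNA libraries were above all 4 control siRNA libraries. TYMS rose by 0.16 ± 0.04 on the log2 scale (SE, limma adjusted p = 0.0273), to 76.9 ± 3.27 FPKM in LY96 siRNA HDM libraries against 68.8 ± 1.97 FPKM in control siRNA HDM libraries (SD, n = 3 each). Leaving out control siRNA HDM library 1 or 2, or LY96 siRNA HDM library 1 or 2, ended the call (limma adjusted p 0.0603 to 0.0954). RRM2, the cell cycle regulated subunit, had 90.7, 93.5 and 87.9 FPKM in the LY96 siRNA HDM libraries, 84.1, 87.6 and 87.6 FPKM in the control siRNA HDM libraries, 90.0 FPKM with LY96 siRNA and PBS, and 85.3 FPKM with control siRNA and PBS. The HDM groups of RRM2 were apart by a narrow gap and the difference of 0.07 was not called, nor was that of RRM1 (-0.03).

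E2F1 is the transcription factor that activates S-phase genes, cyclin E (CCNE1 and CCNE2) drives the kinase at the G1 to S transition, and UHRF1 carries DNA methylation over to the new strand. E2F1 had 56.9, 64.4 and 62.0 FPKM in the LY96 siRNA HDM libraries, 55.8, 55.5 and 53.6 FPKM in the control siRNA HDM libraries, 56.5 FPKM with LY96 siRNA and PBS, and 57.2 FPKM with control siRNA and PBS. The HDM groups did not overlap while the PBS pair lay close together. E2F1 missed the threshold (0.15 ± 0.05 SE, limma adjusted p = 0.0581) and passed it under median-ratio scaling (limma adjusted p = 0.0296), quantile normalization (0.0218) and without LY96 siRNA HDM library 1 (0.0156). CCNE1 went the other way at -0.25 ± 0.09 (SE, limma adjusted p = 0.106), and passed the threshold in an additive model over all 8 libraries (0.0275). The siRNA effect of that model also takes in the PBS pair and is not the effect under HDM alone. CCNE2, at 0.08, and UHRF1, at 0.09, were not called.

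Mitotic entry is driven by the kinase CDK1 with cyclins A2, B1 and B2, and FOXM1 is a transcription factor of their genes. CCNB1 had 101, 95.9 and 101 FPKM in the LY96 siRNA HDM libraries, 107, 106 and 107 FPKM in the control siRNA HDM libraries, 107 FPKM with LY96 siRNA and PBS, and 115 FPKM with control siRNA and PBS. With HDM, the 3 LY96 siRNA libraries all lay below the 3 control siRNA libraries. The difference of -0.10 ± 0.03 fell just short of the threshold (SE, limma adjusted p = 0.0522), and passed it in the additive model over all 8 libraries (0.0222). With HDM, CDK1 had 72.7, 77.4 and 76.8 FPKM in LY96 siRNA cells and 80.0, 85.6 and 80.3 FPKM in control siRNA cells, without overlap, a difference of -0.11 that was not called (limma adjusted p = 0.0773) but passed in the additive model (0.0325). CCNA2 (-0.06), CCNB2 (0.01) and FOXM1 (0.05) were not called.

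AURKA, the Aurora A kinase of centrosomes and spindle poles (chr20:56369389-56392337), had the smallest adjusted p of the 36 genes. It had 41.2, 38.6 and 39.2 FPKM in the LY96 siRNA HDM libraries, 47.9, 50.3 and 45.3 FPKM in the control siRNA HDM libraries, 43.3 FPKM with LY96 siRNA and PBS, and 48.4 FPKM with control siRNA and PBS. Every LY96 siRNA library was below every control siRNA library. With HDM the mean was 39.7 ± 1.35 FPKM in LY96 siRNA cells and 47.8 ± 2.50 FPKM in control siRNA cells (SD, n = 3 each), a log2 difference of -0.26 ± 0.04 (SE, limma adjusted p = 0.00631), and the call held in all 13 alternatives tried. PLK1, the Polo kinase of mitotic entry and exit (chr16:23677656-23690367), had 46.7, 47.9 and 44.7 FPKM in the LY96 siRNA HDM libraries, 52.6, 51.2 and 52.9 FPKM in the control siRNA HDM libraries, 53.4 FPKM with LY96 siRNA and PBS, and 52.3 FPKM with control siRNA and PBS. It fell by 0.17 on the log2 scale with HDM (limma adjusted p = 0.0149), while the PBS pair differed little. Its limma adjusted p was 0.0526 without control siRNA HDM library 3 and 0.0634 in an additive model over all 8 libraries, so neither kept the call. CDC20, which activates the anaphase-promoting complex, had 67.7, 69.1 and 71.0 FPKM in the LY96 siRNA HDM libraries, 69.6, 70.6 and 70.5 FPKM in the control siRNA HDM libraries, 71.4 FPKM with LY96 siRNA and PBS, and 70.9 FPKM with control siRNA and PBS. Its groups overlapped and the 95% interval of its difference was -0.09 to 0.05. The checkpoint kinase genes BUB1 (-0.10) and BUB1B (0.04) and the chromosomal passenger genes AURKB (0.10) and BIRC5 (0.02) were not called.

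KIF11, the kinesin that pushes spindle poles apart (chr10:92593286-92655395), was the mitotic gene that rose. It had 36.8, 35.1 and 34.8 FPKM in the LY96 siRNA HDM libraries, 32.1, 32.5 and 31.5 FPKM in the control siRNA HDM libraries, 38.8 FPKM with LY96 siRNA and PBS, and 32.9 FPKM with control siRNA and PBS. All 4 LY96 siRNA libraries were above all 4 control siRNA libraries. The log2 difference under HDM was 0.15 ± 0.04 (SE, limma adjusted p = 0.025), and the call was lost without any 1 of the 3 control siRNA HDM libraries or without LY96 siRNA HDM library 1 (limma adjusted p 0.0600 to 0.0809). TOP2A, which untangles sister chromosomes, had 116, 109 and 114 FPKM in the LY96 siRNA HDM libraries, 111, 112 and 114 FPKM in the control siRNA HDM libraries, 122 FPKM with LY96 siRNA and PBS, and 112 FPKM with control siRNA and PBS. Its HDM groups overlapped and its difference was 0.01 ± 0.03 (SE). The centromere histone CENPA (-0.09), the kinetochore genes CENPE (-0.02) and CENPF (0.02), the cytokinesis kinesin KIF20A (-0.09), the spindle assembly factor TPX2 (-0.07) and MKI67 (0.02), the gene of the proliferation antigen Ki-67, were not called.

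Across the set, the 95% intervals of the 31 genes not called stayed between -0.46, for CCNE1, and 0.25, for E2F1, on the log2 scale. Apart from CCNE1 the lowest bound was -0.20. These are unadjusted intervals, and genes that missed the threshold were not shown to be equal. By overlap, 8 of 16 S-phase genes (50%; MCM2, MCM3, MCM7, TYMS, RRM2, E2F1, CDC45 and UHRF1) had all 3 LY96 siRNA HDM libraries above all 3 control siRNA HDM libraries, beside 15.2% of all genes tested, and 1 (6.25%; CCNE1) had them below. Of 20 mitotic genes 1 (5%; KIF11) had them above and 8 (40%; CCNA2, CCNB1, CDK1, BUB1, AURKA, PLK1, CENPA and KIF20A) had them below, beside 21.8% of all genes. These genes are made together in the same cells, so the 36 are not independent. They were also chosen with earlier results of these data known, and no test was run over the sets. The summed S-phase level was 925, 962 and 924 FPKM in the LY96 siRNA HDM libraries, against 887, 895 and 893 FPKM in the control siRNA HDM libraries, 938 FPKM with LY96 siRNA and PBS and 887 FPKM with control siRNA and PBS. The summed mitotic level was 1049, 1025 and 1035 FPKM in the LY96 siRNA HDM libraries, against 1057, 1065 and 1069 FPKM in the control siRNA HDM libraries, 1109 FPKM with LY96 siRNA and PBS and 1085 FPKM with control siRNA and PBS. With FPKM as deposited, the sums do not overlap between the siRNAs under HDM in either set. The median-ratio size factors were 0.990, 1.004 and 0.996 in the LY96 siRNA HDM libraries. They were 1.009, 1.013 and 1.014 in the control siRNA HDM libraries. Divided by these factors, the mitotic sums overlap between the siRNAs and the S-phase sums do not. The ratio of the S-phase sum to the mitotic sum was 0.881, 0.938 and 0.892 with LY96 siRNA and HDM and 0.839, 0.841 and 0.836 with control siRNA and HDM, beside 0.845 with LY96 siRNA and PBS and 0.818 with control siRNA and PBS. The highest ratio, in LY96 siRNA HDM library 2, joined the highest S-phase sum to the lowest mitotic sum.

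**Figure D3:**
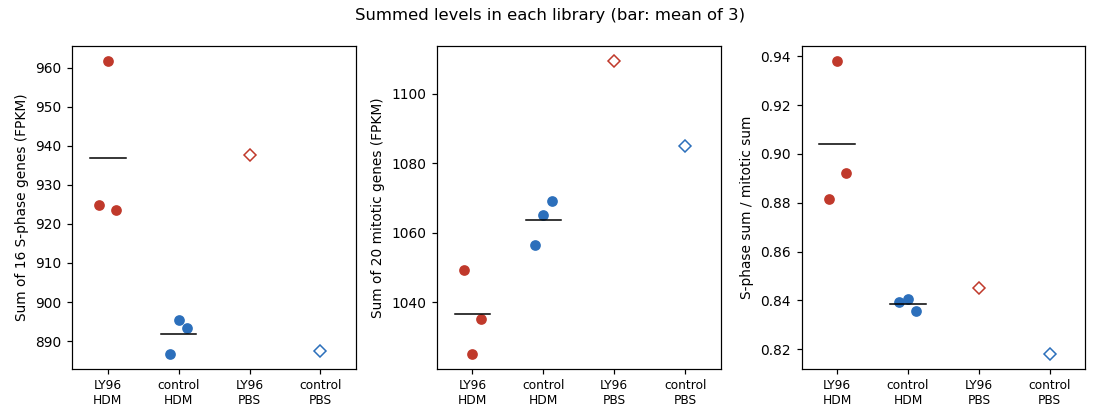
Summed FPKM of the 16 S-phase genes (left), of the 20 mitotic genes (middle) and their ratio (right) in each library, with a bar at the mean of each group of 3. The axes do not start at 0. The 3 LY96 siRNA HDM libraries have S-phase sums of 924 to 962 FPKM and ratios of 0.881 to 0.938, above the 887 to 895 FPKM and 0.836 to 0.841 of the control siRNA HDM libraries.

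Without HDM the siRNAs were compared in 1 library each, with no replicate check. The median log2 difference over the S-phase genes was 0.08, with 12 of 16 above 0, and over the mitotic genes 0.03, with 14 of 20 above 0, beside -0.02 over all genes. The largest gaps were those of MKI67, 31.9% higher in the LY96 siRNA library than in the control siRNA library, and CCNE1, at -40.7%. Among the genes called under HDM, MCM3, TYMS, KIF11 and AURKA lay on the same side in the PBS pair, and PLK1 differed by 2.09% the other way.

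With HDM extract, averaged over both siRNAs, 1 S-phase gene (UHRF1) rose and 1 mitotic gene (CDK1) fell, beside 4.86% of 12604 genes that rose and 3.50% that fell. The median log2 difference, HDM minus PBS, was 0.01 over the S-phase genes and -0.06 over the mitotic genes, 16 of 20 of which were below 0, beside 0.01 over all genes. Each PBS group is 1 library, so the test takes the spread of the HDM libraries as that of PBS libraries, and 1 unusual PBS library would move every HDM difference of its siRNA.

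CDK1, the kinase that starts mitosis (chr10:60778331-60794852), had 72.7, 77.4 and 76.8 FPKM with LY96 siRNA and HDM against 87.6 FPKM with LY96 siRNA and PBS. With control siRNA it had 80.0, 85.6 and 80.3 FPKM with HDM against 94.9 FPKM with PBS. Each HDM library was below both PBS libraries. The log2 difference was -0.21 ± 0.04 (SE, limma adjusted p = 0.00996) over both siRNAs, and it was -0.21 with LY96 siRNA and -0.21 with control siRNA, where it was not called (limma adjusted p = 0.0664 and 0.0905). The call over both siRNAs held in all 12 alternatives, none of which left out a PBS library. CCNB1, its cyclin partner, differed by -0.10 ± 0.03 (SE) and was not called (limma adjusted p = 0.0744).

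UHRF1 (chr19:4903080-4962154) had 33.6, 35.0 and 33.2 FPKM with LY96 siRNA and HDM against 30.6 FPKM with LY96 siRNA and PBS. With control siRNA it had 31.7, 32.6 and 31.5 FPKM with HDM against 28.6 FPKM with PBS. Each HDM library was above both PBS libraries. The log2 difference was 0.15 ± 0.04 (SE, limma adjusted p = 0.0343), and leaving out any 1 HDM library other than LY96 siRNA HDM library 3 ended the call (limma adjusted p 0.0514 to 0.0744).

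Within each siRNA, 0 of the 36 genes were called for HDM by limma, beside 4.90% of all genes called in either direction with LY96 siRNA and 2.28% with control siRNA. At an unadjusted p under 0.05 there were 1 higher and 9 lower with LY96 siRNA, beside 9.39% and 7.28% of all genes, and 2 higher and 3 lower with control siRNA, beside 9.45% and 6.73% of all genes. The mitotic median was -0.11 with LY96 siRNA, with 18 of 20 genes below 0, and -0.01 with control siRNA, with 14 of 20 below 0. The S-phase median was 7.1e-04 with LY96 siRNA and -0.0020 with control siRNA. With LY96 siRNA, CDK1, PLK1 (-0.20 ± 0.05 SE, limma adjusted p = 0.0592) and KIF20A (-0.17 ± 0.04 SE, limma adjusted p = 0.0583) missed the threshold and passed it under median-ratio scaling (limma adjusted p 0.0353, 0.0359 and 0.0429) and quantile normalization (0.0296, 0.0291 and 0.0339). The largest difference with control siRNA was that of MKI67, whose HDM minus PBS difference (0.26 ± 0.06 SE, limma adjusted p = 0.0587) missed the threshold and passed it when LY96 siRNA HDM library 1 was left out (0.0289). That library is in neither group of this difference, so leaving it out altered the test and not the difference itself.

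**Figure D4:**
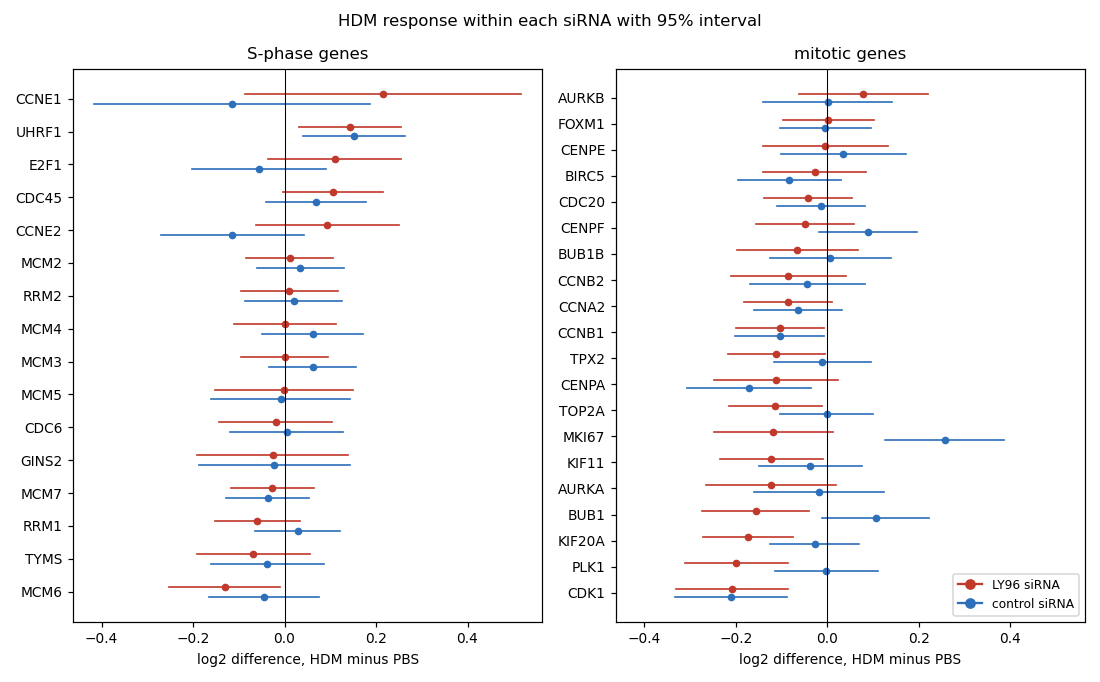
Log2(FPKM + 1) difference of HDM minus PBS with unadjusted 95% limma intervals for the S-phase genes (left) and mitotic genes (right), with LY96 siRNA in red above control siRNA in blue. Each difference compares 3 HDM libraries with 1 PBS library. None of the 36 genes was called within either siRNA, 18 of 20 mitotic genes were below 0 with LY96 siRNA, and MKI67 was at 0.26 with control siRNA and -0.12 with LY96 siRNA.

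Whether the HDM response itself differed between the siRNAs was tested by the interaction, which subtracts the control siRNA response from the LY96 siRNA response. By limma it called 0 of the 36 genes, beside 0.0555% of all genes, and 0 higher and 4 lower at an unadjusted p under 0.05 (MKI67, BUB1, PLK1 and KIF20A), beside 4.15% and 3.44% of all genes at that threshold. No alternative called a member. In a trial on simulated data this test recovered 1% of genes changed 1.2-fold and 78% of those changed 2-fold. The trial gave the PBS libraries the spread of the HDM libraries. MKI67 (chr10:128096659-128126385) had 58.5, 53.4 and 54.0 FPKM with LY96 siRNA and HDM against 60.1 FPKM with LY96 siRNA and PBS. With control siRNA it had 55.0, 53.3 and 55.5 FPKM with HDM against 45.5 FPKM with PBS. The 6 HDM libraries thus lay between the PBS libraries, and the interaction of -0.37 ± 0.08 (SE, limma adjusted p = 0.225) rests on those 2 single libraries. In 7 of the 36 genes (RRM1, E2F1, CCNE1, CCNE2, MKI67, BUB1 and CENPF) all HDM libraries lay on one side of the PBS library with LY96 siRNA and on the other side with control siRNA, beside 11.4% of all genes.

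The wider cell cycle machinery was followed in 12 lists of 167 further genes, 166 of them tested. Between siRNAs under HDM, 19 rose (11.4%) and 15 fell (9.04%), beside 6.68% and 8.92% of all genes tested. With HDM over both siRNAs, 6 rose (3.61%) and 10 fell (6.02%), beside 4.86% and 3.50% of all genes. The share that fell between siRNAs lay near that of the whole table. The share that rose between siRNAs and the share that fell with HDM were higher than over all genes. The share that rose with HDM was lower. The lists were chosen with earlier results of these data known, and no test was run over them. The plot of the lists shows that most differences were small, with FEN1 and CCND1 standing far from the rest.

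**Figure D5:**
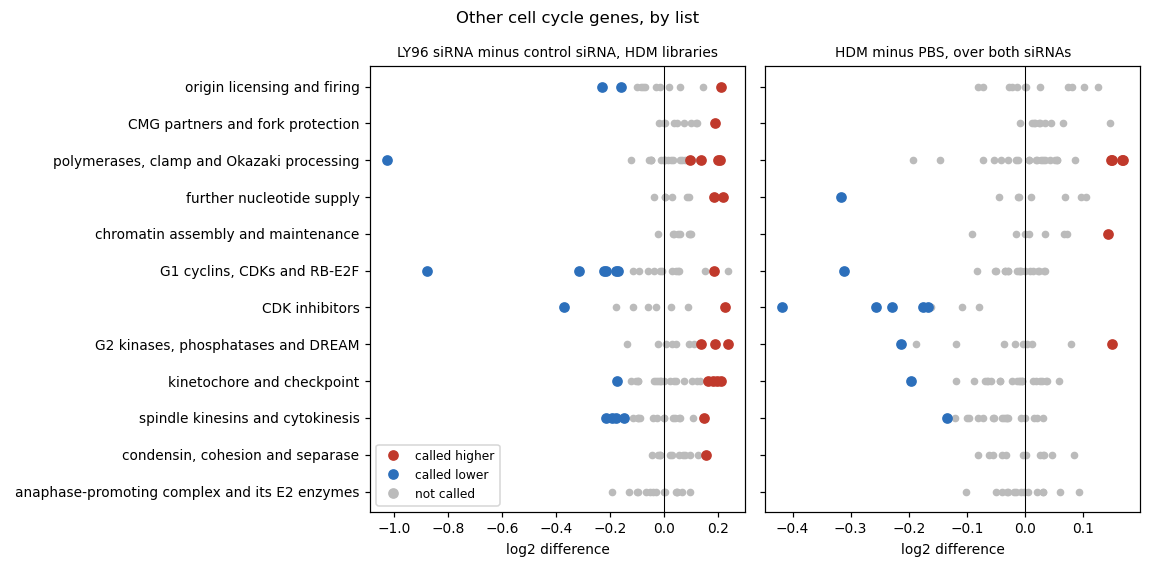
Log2(FPKM + 1) differences of 166 further cell cycle genes in 12 lists, LY96 siRNA minus control siRNA in HDM libraries (left) and HDM minus PBS over both siRNAs (right). Red and blue points were called higher and lower. FEN1 at -1.03 and CCND1 at -0.88 are the lowest points on the left, and 5 of 8 CDK inhibitor genes are blue on the right.

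The 2 largest falls between siRNAs in the lists were those of FEN1 and CCND1. FEN1, the flap nuclease that trims Okazaki fragments (chr11:61792637-61797244), had 31.6, 34.2 and 34.6 FPKM in the LY96 siRNA HDM libraries, 68.0, 69.5 and 69.8 FPKM in the control siRNA HDM libraries, 33.4 FPKM with LY96 siRNA and PBS, and 76.6 FPKM with control siRNA and PBS. Every LY96 siRNA library was below every control siRNA library, and the log2 difference under HDM was -1.03 ± 0.04 (SE, limma adjusted p = 1.29e-05). Of the 24 polymerase, clamp and Okazaki genes 4 rose, among them PRIM1, the primase subunit (0.21 ± 0.04 SE), and RFC4, a clamp loader subunit (0.20 ± 0.04 SE), and FEN1 was the 1 that fell. CCND1, cyclin D1 of the G1 phase (chr11:69641087-69654474), had 9.85, 10.8 and 10.3 FPKM in the LY96 siRNA HDM libraries, 19.9, 19.8 and 19.6 FPKM in the control siRNA HDM libraries, 14.2 FPKM with LY96 siRNA and PBS, and 22.8 FPKM with control siRNA and PBS. Every LY96 siRNA library was below every control siRNA library, and the difference under HDM was -0.88 ± 0.04 (SE, limma adjusted p = 2.04e-05). Of the 19 tested genes of G1 cyclins, their kinases and the RB-E2F pathway, 6 fell and 1 rose, beside 8.92% and 6.68% of all genes. SKP2, which marks the inhibitor p27 for destruction, fell to 25.1 ± 1.93 FPKM in LY96 siRNA HDM libraries against 31.4 ± 0.838 FPKM in control siRNA HDM libraries (SD, n = 3 each; log2 -0.31, limma adjusted p = 0.00647). CCND3, cyclin D3, fell by 0.22 on the log2 scale, a call lost without control siRNA HDM library 1 or 2 or LY96 siRNA HDM library 3 (limma adjusted p 0.0550 to 0.0660). FEN1, CCND1 and SKP2 were called in every alternative tried.

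In the other lists the called differences between siRNAs were smaller, CDKN1C being the lowest at -0.37 on the log2 scale. Over the 12 lists the median difference ran from -0.05, in origin licensing, to 0.07, in G2 control, beside -0.02 over all genes tested. The counts of these lists stand beside 6.68% of all genes that rose and 8.92% that fell, and a count of 1 or 2 genes in a list this small is near that background. In origin licensing 1 of 12 rose (CDT1, the loader partner of CDC6, 0.21) and 2 fell (DBF4, the activator of the CDC7 kinase, -0.23, and ORC3, an origin recognition subunit, -0.16). TIMELESS, a fork protection protein, was the 1 of 10 fork genes that rose (0.19). Of 8 further nucleotide genes 2 rose, the thymidine kinase TK1 (0.22) and the nucleoside transporter SLC29A1 (0.18). Of 10 genes of G2 control 3 rose: PKMYT1, an inhibitory kinase of CDK1 (0.24), CDC25B, the phosphatase that opposes it (0.19), and MYBL2, which encodes B-MYB (0.14). These members thus included both an inhibitor and an activator of CDK1. Kinetochore and checkpoint genes had 4 of 22 up, with CENPN (0.21), SGO1 (0.20), the guardian of centromere cohesion, and CENPM (0.18) the largest, and 1 down. Spindle kinesin and cytokinesis genes had 4 of 18 down, with ANLN, anillin of the cleavage furrow (-0.21), HMMR, a spindle protein (-0.19), and CDCA8, the passenger subunit borealin (-0.18), the largest, and 1 up. NCAPD2 was the 1 of 12 condensin and cohesion genes that rose (0.16). CDK inhibitors had 1 up, CDKN2C (0.23), and 1 down, CDKN1C (-0.37), of 8. By limma 0 of 8 chromatin assembly genes and 0 of 15 anaphase-promoting complex genes were called. At an unadjusted p under 0.05, 2 chromatin assembly genes were higher and 0 lower. At that threshold 1 anaphase-promoting complex gene was higher and 3 lower. Of all genes tested, 12.8% were higher and 18.4% lower at that threshold.

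Many of these small differences depended on single libraries. Of the 24 genes named for the siRNA comparison, 10 were called in all 6 fits that left out 1 HDM library. TIMELESS was lost without control siRNA HDM library 1 (limma adjusted p = 0.0561). NCAPD2, MYBL2, RFC4 and CDCA8 were lost without control siRNA HDM library 2 (0.0594, 0.0513, 0.0512 and 0.0609). SLC29A1 was lost without control siRNA HDM library 3 (0.0509) and HMMR without LY96 siRNA HDM library 3 (0.0544). The weakest calls were CDKN1C, lost without any of the 6 HDM libraries (0.0507 to 0.143), and CENPN, lost without any except control siRNA HDM library 1 (0.0637 to 0.0768). ORC3 was lost without any except control siRNA HDM library 1 (0.0750 to 0.154) and SGO1 without any except LY96 siRNA HDM library 1 (0.0821 to 0.126). CDT1 was lost without control siRNA HDM library 2 or 3 or LY96 siRNA HDM library 1 or 2 (0.103 to 0.126), and DBF4 without control siRNA HDM library 1 or 3 or LY96 siRNA HDM library 2 or 3 (0.0828 to 0.0956).

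With HDM, the CDK inhibitors were the list with the largest share of genes that fell. Most of them encode small proteins that bind and block cyclin-dependent kinases. Of 8 genes 5 fell over both siRNAs and 0 rose, beside 3.50% of all genes that fell and 4.86% that rose, with a median log2 difference of -0.17 beside 0.01 over all genes tested, and the list's median was -0.18 with median-ratio scaling and -0.18 with quantile normalization. CDKN2B, which encodes p15, had 20.6, 20.2 and 19.5 FPKM with LY96 siRNA and HDM against 24.8 FPKM with LY96 siRNA and PBS, and 22.1, 20.9 and 19.9 FPKM with control siRNA and HDM against 24.6 FPKM with control siRNA and PBS. Each HDM library was below both PBS libraries (-0.26 ± 0.05 SE, limma adjusted p = 0.00854). CDKN2D, which encodes p19, had 8.27 ± 0.331 FPKM with LY96 siRNA and HDM (SD, n = 3) against 9.43 FPKM with LY96 siRNA and PBS. With control siRNA it had 8.10 ± 0.252 FPKM with HDM (SD, n = 3) against 10.1 FPKM with PBS (-0.23 over both siRNAs, limma adjusted p = 0.0198). Both of these calls held in all 12 alternatives, none of which left out a PBS library. CDKN1C, which encodes p57, had the largest fall (-0.42 ± 0.11 SE, limma adjusted p = 0.0457) at the lowest level, and it was lost without any control siRNA HDM library or without LY96 siRNA HDM library 2 (0.0517 to 0.0892). CDKN1B (-0.18), which encodes p27, and CDKN2C (-0.17), which encodes p18, also fell, and are named here after their values were seen. CDKN1B held in all 12 alternatives. CDKN2C was lost in 4 of the 12, among them the fits without control siRNA HDM library 1 or 3 (0.0522 to 0.0544). CDKN1A (-0.16), the p53 target p21, CDKN2A (-0.11) and CDKN3 (-0.08) did not pass the test.

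Elsewhere in the lists, CCND1 (-0.31 ± 0.04 SE, limma adjusted p = 0.00209), SLC29A1 (-0.32 ± 0.04 SE, limma adjusted p = 0.00124) and WEE1, the kinase that holds CDK1 inactive (-0.21 ± 0.04 SE, limma adjusted p = 0.0135), fell with HDM. CDC25B (0.15 ± 0.03 SE, limma adjusted p = 0.00788) and DNMT1, the maintenance methyltransferase that UHRF1 guides (0.14 ± 0.03 SE, limma adjusted p = 0.0185), rose. These 5 calls held in each of the 6 fits that left out 1 HDM library, and no fit left out a PBS library. DNMT1 lost its call in 1 of the 12 alternatives. Of 24 polymerase, clamp and Okazaki genes 4 rose and 0 fell, beside 4.86% and 3.50% of all genes, with POLE4 (0.17), POLD3 (0.17) and PRIM1 (0.15) the largest. DLGAP5, a spindle protein (-0.20), and RACGAP1, of the cleavage furrow (-0.13), fell. These 5 were less secure: POLD3 was lost without control siRNA HDM library 2 or 3 (limma adjusted p 0.0516 to 0.0540), DLGAP5 without control siRNA HDM library 1 or 3 (0.0576 to 0.0668), POLE4 without any control siRNA HDM library or LY96 siRNA HDM library 3 (0.0581 to 0.0989), PRIM1 without control siRNA HDM library 2 or 3 or LY96 siRNA HDM library 1 or 2 (0.0586 to 0.0762), and RACGAP1 without any except LY96 siRNA HDM library 1 (0.0722 to 0.0878). Within LY96 siRNA cells, CCND1 (-0.43, limma adjusted p = 0.00394) and SLC29A1 (-0.36, limma adjusted p = 0.00527) fell with HDM in every fit that left out 1 HDM library. CDKN2B (-0.29) and WEE1 (-0.26) fell and PRIM1 (0.23) and POLE4 (0.26) rose, each lost without 1 or more libraries (highest limma adjusted p 0.0798, 0.0755, 0.0733 and 0.0761). Within control siRNA cells SLC29A1 was the 1 gene called (-0.27, limma adjusted p = 0.0405), and it was lost without control siRNA HDM library 1 or 3 or any LY96 siRNA HDM library (0.0586 to 0.0993). The interaction was called for 0 of the 166 genes by limma, beside 0.0555% of all genes, with 13 higher and 3 lower at an unadjusted p under 0.05, beside 4.15% and 3.44% of all genes. Responses of the 2 siRNAs share no library, but each rests on 1 PBS library.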

How the data were processed

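RNA-seq of 8 BEAS-2B libraries was used as deposited, 1 table of values per gene symbol for each library. Per the submitters' processing notes, the aligner was HISAT2 2.2.0 and the build hg38. Which program and gene annotation gave the gene values is not given in the sources used here. The values deposited by the authors were taken as FPKM, a unit inferred from the numbers themselves, since neither header nor label names it. Library totals differ and no steps of whole reads were found among low values, so the depth of each library is unknown and no counting interval can be given. Symbols were matched exactly, with 2 listed genes found under older RefSeq synonyms (SGO1 as SGOL1 and SGO2 as SGOL2).

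Differences were tested with limma 3.58.1 in R 4.3.3 on log2(FPKM + 1), which understates changes of low genes, with trend and robust moderation, leaving out genes whose mean was under 1 FPKM. The siRNA effect was fitted on the 6 HDM libraries, and the HDM effects and the interaction on all 8, each with 4 residual degrees of freedom. Tests were two-sided and adjusted by Benjamini-Hochberg over all genes tested, with a threshold of 0.05. Where 1 library stands for a group, its spread is assumed to be that of the others. An exact permutation test of 3 against 3 libraries cannot go below p = 0.1. In a trial on simulated data over 12604 genes, the siRNA comparison recovered 38% of genes changed 1.2-fold and 93% of genes changed 2-fold, with 5 false calls of 136. The trial changed 100 genes by each fold, a smaller share than was called between siRNAs in the data. It drew normal noise with the spread of the HDM libraries for every library. Its rates therefore need not be those of the real fits.

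The 36 genes and the lists were chosen with earlier results of these data known. Values in every library are given for each of the 36 genes called in any of the 5 comparisons as fitted above (not for those called under an alternative alone) and for the highest-level gene of each role, and up to 3 called genes per list and comparison with the largest difference are named, plus FEN1. Gene coordinates are from GENCODE 29 (GRCh38). Overlapping or antisense genes may share reads, since strand use in counting was not given in the sources used here. Alternatives were a pseudocount of 0.25, no filter, median-ratio scaling, quantile normalization, no trend or robust moderation, a replicate block, an additive model over all 8 libraries and leaving out each HDM library. The siRNA effect of the additive model also takes in the PBS pair. No alternative left out a PBS library.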

Additional observations from a re-analysis of the deposited data

Results flagged for a closer look

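In 7 of the 36 genes all 3 HDM libraries lay on one side of the PBS library with LY96 siRNA and on the other side with control siRNA, 4 of 16 S-phase genes and 3 of 20 mitotic genes, beside 11.4% of all genes tested. Each side rests on 1 PBS library. The difference between the responses, LY96 siRNA minus control siRNA, was tested with limma, and none of the 7 passed. E2F1, CCNE1 and CCNE2 lay above the PBS library with LY96 siRNA and below it with control siRNA, with interactions of 0.17, 0.33 and 0.21 on the log2 scale (limma adjusted p = 0.719, 0.727 and 0.660). RRM1, MKI67, BUB1 and CENPF lay below it with LY96 siRNA and above it with control siRNA. Their interactions were -0.088, -0.37, -0.26 and -0.14 (limma adjusted p = 0.767, 0.225, 0.434 and 0.669).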

How the results depend on the processing

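In the siRNA comparison under HDM, the number of S-phase genes that rose was 2 and became 1 with no filter on low values, 3 with median-ratio scaling, 6 with quantile normalization, 0 without trend and robust moderation, and 0 to 2 when 1 HDM library was left out. The mitotic gene that rose was lost without trend and robust moderation (0) and was 0 to 1 without single libraries, where 1 to 2 mitotic genes fell. An additive model, whose siRNA effect also takes in the PBS pair, called 1 S-phase gene (CCNE1) and 3 mitotic genes lower, gaining CCNB1 and CDK1 and losing PLK1. Quantile normalization gained MCM2, MCM7, RRM2 and E2F1 (limma adjusted p 0.0497, 0.0465, 0.0465 and 0.0218). The mitotic median turned to 0.0022 with median-ratio scaling and 6.0e-04 with quantile normalization, and was -0.033 to -0.0035 without single libraries. The S-phase median was 0.089 with quantile normalization and 0.050 to 0.073 without single libraries, the S-phase minus mitotic gap was 0.054 to 0.10, and 553 to 799 genes fell in all. In the PBS pair the S-phase median was 0.11 and 0.12, and the mitotic median 0.062 and 0.076, with median-ratio scaling and quantile normalization. For HDM over both siRNAs, the S-phase gene that rose was lost (0) with no filter and without trend and robust moderation, and was 0 to 1 without single libraries. For HDM with LY96 siRNA, 3 mitotic genes fell with median-ratio scaling and 3 with quantile normalization, the mitotic median was -0.12 with median-ratio scaling and -0.13 to -0.088 without single libraries, the gap was 0.079 to 0.14, and 158 genes fell without trend and robust moderation. For HDM with control siRNA, 47 genes fell without trend and robust moderation; without single libraries 126 to 218 genes rose, 53 to 111 fell, 0 to 1 mitotic genes rose (MKI67, without LY96 siRNA HDM library 1) and the gap was 6.6e-04 to 0.039. For the interaction, 13 genes rose and 7 fell with no filter, 11 rose with quantile normalization and 0 without trend and robust moderation, and 0 to 31 rose and 0 to 2 fell without single libraries. Its mitotic median was -0.087 with quantile normalization and -0.078 to -0.042 without single libraries, its S-phase median -0.038 to 0.0094 and its gap 0.015 to 0.077. The cause of these changes was not tested. AURKA between siRNAs and CDK1 over both siRNAs were called in every alternative run for them. No alternative left out a PBS library, so the single PBS values behind the CDK1 call were not varied. Of 173 values of the 36 genes that were not called, 39 had the other sign and 11 were called in at least 1 alternative. Depth is unknown, so counting error could not be set beside these values.

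Same-numbered libraries of the siRNA groups deviated together little (correlations of 0.048, -0.016 and -0.016 across genes). Pairs with unlike numbers had correlations of -0.028 to 0.039. The labels do not say whether same-numbered libraries share a culture or day, and these correlations cannot exclude it. With the number as a replicate block, 716 genes rose and 919 fell between siRNAs, and of the 36 genes 1 S-phase gene and 1 mitotic gene rose and 2 mitotic genes fell, TYMS being lost (limma adjusted p = 0.0573).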
